A study of Mus musculus with 8 samples.

Results

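The genes described here encode the granins and the prohormone processing machinery of the regulated secretory pathway: Chga, Chgb, Scg2, Scg3, Scg5, Vgf, Pcsk1, Pcsk2, Cpe and Pcsk1n. They were taken by gene name from the deposited expression table, which held 10 of 10 names, each on 1 row, among 26520 genes. The study sequenced polyA RNA of the nucleus and of the cytoplasm of mouse liver and of MIN6 cells, as 8 libraries in all, 2 per fraction and source. Its title names the retention of mRNA in the nucleus of mammalian tissues, and the comparison of nuclear with cytoplasmic RNA addresses that question. MIN6 is an insulin-secreting line derived from an insulinoma of a mouse that carried SV40 T antigen under an insulin promoter, so it is 1 transformed line and stands for beta cells only as a model. The liver samples carry the strain labels C57BL/6, C57BL/7, C57BL/8 and C57BL/9, a run of numbers over the nuclear and then the cytoplasmic samples, and age, sex and the number of animals are not given in the labels used here. No treatment or genotype separates the groups. MIN6 nuclei were pelleted through sucrose after detergent lysis, whereas liver nuclear RNA was the soluble material left once chromatin had been removed, so the nuclear fractions of the 2 sources were not made the same way.

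Granins are acidic, calcium-binding proteins that condense with hormones in the trans-Golgi network and fill dense-core granules, and several of them are themselves cut into peptides. Within the maturing granule the convertases PC1/3 and PC2, encoded by Pcsk1 and Pcsk2, cut prohormones after pairs of basic residues, and carboxypeptidase E, encoded by Cpe, trims the basic residues left at the new ends. In beta cells this chain of steps turns proinsulin into insulin and C-peptide, while hepatocytes secrete their proteins without such storage granules.

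Several granin and convertase promoters are known to carry a cAMP response element (CRE), the site bound by CREB family factors. Sequences around matches to it are therefore shown. Whether the site relates to the levels of these genes in MIN6 or liver was not tested. The RefSeq promoter table for build GRCm38.p6, which gives a short stretch around each start site, matched 8 of the 10 genes, all except Vgf and Cpe. The palindrome TGACGTCA was searched on both strands, as was its shorter form TGACG, whose reverse complement is CGTCA and which is contained in the palindrome. Each of the following is 30 bases, 5′ to 3′ on the strand of the gene, with the matched letters in capitals.
Scg2 (chr1:79440076-79440105, minus strand): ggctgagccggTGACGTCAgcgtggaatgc
Chgb (chr2:132781559-132781588, plus strand): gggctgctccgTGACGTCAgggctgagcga
Pcsk1 (chr13:75089768-75089797, plus strand): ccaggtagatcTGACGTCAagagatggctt
Chga (chr12:102554884-102554913, plus strand): gggggcggtcctaTGACGtaatttcctggg
The first base of the match lay at -68 in Scg2, -72 in Chgb and -78 in Pcsk1, counted from the RefSeq start site. In Chga it lay at -44. The Scg2 and Chgb windows fall inside an exon of a GENCODE M21 transcript that starts farther upstream, whereas those of Pcsk1 and Chga lie outside the annotated gene. Among the 8 promoters 3 held the palindrome, against 588 of 32851 promoters in the table (1.79%). The shorter form was present in 7 of 8, against 6837 promoters (20.8%), with Pcsk1n the promoter in which these letters were not found. These matches describe the sequence and are not evidence of binding.

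Values are FPKM, a measure of fragments per kilobase of transcript, 1 per gene and library. The sums over all genes ran from 35469 in a MIN6 nuclear library to 1219630 in a liver cytoplasmic library, so the deposited values are on different scales in different libraries. Depth was estimated from the steps between low values at 929036 to 1839520 reads per library. In the 4 MIN6 samples, titles and source fields contradict each other on the fraction. Titles were used, and the nuclear noncoding RNA Meg3 stood at 424 and 97.9 FPKM in the MIN6 libraries titled nuclear and at 5.28 and 0.99 FPKM in those titled cytoplasmic. Neat1, a noncoding RNA of nuclear paraspeckles, stood at 22.5 and 28.6 FPKM against 3.05 and 2.68 FPKM. Of the 7 nuclear noncoding RNAs on the list 4 were tested, and these 2 were called nuclear. Malat1, at 1.68 and 5.94 against 1.02 and 0.315 FPKM, did not pass (limma adjusted p = 0.0633), and Rian, at 29.2 and 54.9 against 49.1 and 23.7 FPKM, overlapped between the fractions. The labels do not say that replicates are separate animals or cultures, so p-values measure only the spread between these libraries, which may be technical.

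In MIN6 cells every one of the 10 genes was detected in all 4 libraries, and each had a higher FPKM in both cytoplasmic libraries than in either nuclear library. The cytoplasmic excess was uneven: it was 29.6-fold for Scg2 and 2.53-fold for Chga, as ratios of the means of 2 libraries. Chga, whose product chromogranin A is the founding granin, had the highest level in both fractions, followed by Cpe. Pcsk1n, which encodes the PC1/3 inhibitor proSAAS, had the lowest. In the linear model fit over genes averaging 1 FPKM or more (limma on log2(FPKM + 1), two-sided, Benjamini-Hochberg adjusted), 9 of these genes were tested and Pcsk1n fell under the limit. All 9 were called higher in cytoplasmic RNA at an adjusted p under 0.05, where 46.1% of the 6017 genes tested were called in that direction, and 0 of the 9 were called higher in nuclear RNA, against 11.8% of all genes tested. Leaving out MIN6 cytoplasmic replicate 2 ended all 9 calls, and all calls in the table, leaving out cytoplasmic replicate 1 ended 4 (Chga, Vgf, Pcsk1 and Pcsk2), and leaving out nuclear replicate 1 ended those of Vgf and Pcsk1. Values that did not overlap and were higher in cytoplasmic RNA were found in 59.3% of genes tested.

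The median log2 ratio of nuclear over cytoplasmic was -2.59 for the 9 genes, -0.76 for all genes tested and -1.75 for the 793 genes tested that averaged 10 FPKM or more. The shift of the whole table means that part of each ratio is shared by most genes, and it depends on the scaling between libraries. Ratios below are therefore also given by their place among all genes tested, as the percentage of genes with a ratio farther towards the cytoplasm.

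**Figure D1:**
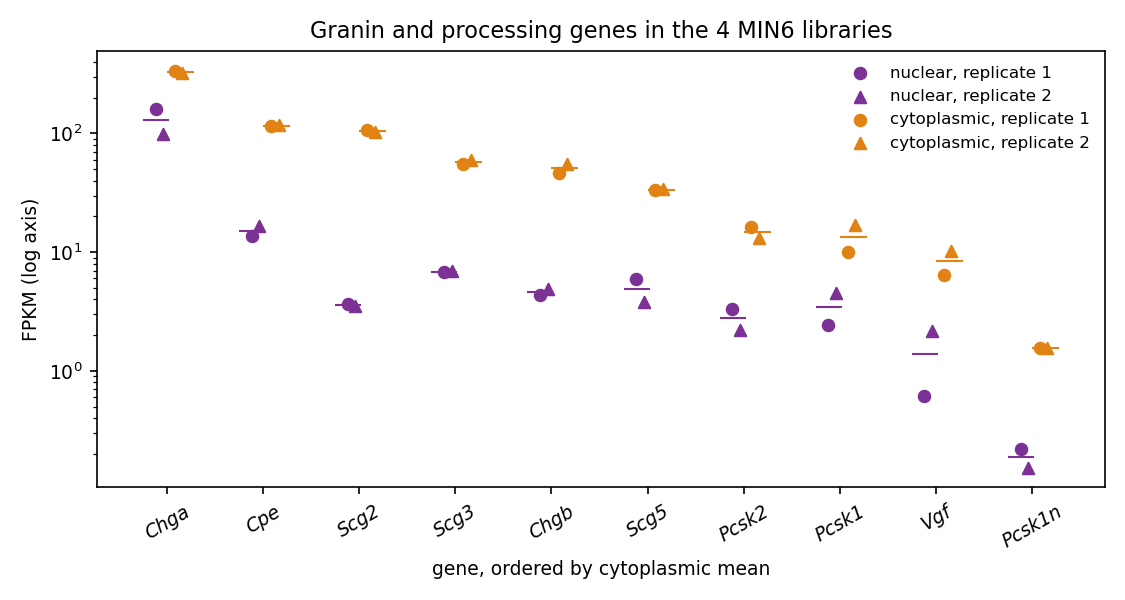
FPKM on a log axis of each of the 10 genes in the 4 MIN6 libraries, ordered by cytoplasmic mean. Points are single libraries and horizontal lines are means of 2 libraries. For each gene both cytoplasmic points lie above both nuclear points, and the gap is smallest for Chga and widest for Scg2.

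Among the granins, Chga (ENSMUSG00000021194, chromosome 12, 102554969 to 102565028, plus strand) stood at 162 and 98.8 FPKM in the nuclear libraries and at 339 and 321 FPKM in the cytoplasmic libraries. The groups did not overlap, and the nuclear libraries differed from each other more than the cytoplasmic ones did. Its means were 130 ± 44.5 nuclear and 330 ± 12.6 cytoplasmic FPKM (SD, n = 2). The log2 ratio was -1.38 (SE 0.32, limma adjusted p = 0.0154), and 32.0% of all genes tested had a ratio farther towards the cytoplasm. Among genes averaging 10 FPKM or more that share was 55.5%, so for its level Chga sat near the middle of the table. The median of such abundant genes lay farther towards the cytoplasm than that of all genes, so the place among them is given for each gene of that level.

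Scg2 (ENSMUSG00000050711, chromosome 1, 79434669 to 79440120, minus strand) encodes secretogranin II, the precursor of secretoneurin. It stood at 3.65 and 3.49 FPKM in nuclear RNA and at 108 and 104 FPKM in cytoplasmic RNA. The replicates of each fraction were close, with means of 3.57 ± 0.110 and 106 ± 2.74 FPKM (SD, n = 2). Its log2 ratio was -4.55 (SE 0.24, limma adjusted p = 0.00144), and 0.150% of all genes tested lay farther towards the cytoplasm, or 1.13% of those averaging 10 FPKM or more.

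Chgb (ENSMUSG00000027350, chromosome 2, 132781278 to 132795079, plus strand) encodes chromogranin B, a major soluble granule protein. Nuclear values were 4.35 and 4.91 FPKM and cytoplasmic values 46.8 and 55.3 FPKM, with no overlap. The cytoplasmic mean was 11.0 times the nuclear mean, and the log2 ratio was -3.21 (SE 0.25, limma adjusted p = 0.00144), with 2.54% of genes tested farther towards the cytoplasm, or 16.0% of those averaging 10 FPKM or more.

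Scg3 (ENSMUSG00000032181, chromosome 9, 75643189 to 75684056, minus strand) encodes secretogranin III, which binds chromogranin A and cholesterol-rich granule membrane. Its nuclear values of 6.82 and 6.89 FPKM were nearly equal, and its cytoplasmic values were 55.0 and 59.9 FPKM. The cytoplasmic mean was 8.38 times the nuclear one, and the log2 ratio was -2.89 (SE 0.24, limma adjusted p = 0.00153). Of genes averaging 10 FPKM or more, 23.2% lay farther towards the cytoplasm.

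Vgf (ENSMUSG00000037428, chromosome 5, 137026392 to 137033351, plus strand) encodes a neurotrophin-inducible granin-like precursor. It stood at 0.613 and 2.16 FPKM in nuclear RNA and at 6.39 and 10.3 FPKM in cytoplasmic RNA. The groups did not overlap, but replicate 2 was 3.53 times replicate 1 in the nuclear fraction and 1.61 times in the cytoplasmic one. The log2 ratio was -2.02 (SE 0.42, limma adjusted p = 0.0111), with the widest error of the 9 genes. Vgf also had the fewest reads behind it of these 9, an estimated 33 in nuclear replicate 1, while the most was 5793 for Chga in the same library.

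Of the convertases, Pcsk1 (ENSMUSG00000021587, chromosome 13, 75089826 to 75134861, plus strand) stood at 2.44 and 4.52 FPKM in nuclear and at 10.1 and 16.9 FPKM in cytoplasmic RNA. Replicate 2 was the higher in both fractions, by 1.85 and 1.68 times. The cytoplasmic mean was 3.88 times the nuclear mean and the log2 ratio was -1.69 (SE 0.38, limma adjusted p = 0.0137). Pcsk2 (ENSMUSG00000027419, chromosome 2, 143546156 to 143816285, plus strand) stood at 3.34 and 2.20 FPKM in nuclear and at 16.1 and 13.2 FPKM in cytoplasmic RNA. Here replicate 1 was the higher in both fractions. Its log2 ratio was -2.06 (SE 0.28, limma adjusted p = 0.00354), and 14.5% of genes tested lay farther towards the cytoplasm, against 22.6% for Pcsk1.

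The convertases each have a partner protein among these genes. Scg5 (ENSMUSG00000023236, chromosome 2, 113776362 to 113829121, minus strand) encodes the chaperone that PC2 needs to become active. It stood at 5.94 and 3.77 FPKM in nuclear and at 33.2 and 34.1 FPKM in cytoplasmic RNA, a log2 ratio of -2.59 (SE 0.29, limma adjusted p = 0.00214), with 30.9% of genes averaging 10 FPKM or more farther towards the cytoplasm. Pcsk1n (ENSMUSG00000039278, chromosome X, 7919822 to 7924410, plus strand) stood at 0.221 and 0.153 FPKM in nuclear and at 1.57 and 1.56 FPKM in cytoplasmic RNA. Its groups did not overlap and the cytoplasmic mean was 8.37 times the nuclear mean, but the gene was outside the test. With no limit on low values it had a log2(FPKM + 1) ratio of -1.11 (limma adjusted p = 0.00924), a scale that understates the change of so low a gene. The ratios between its 4 values came out as whole reads at 6, 4, 19 and 18 reads, within 7.99e-05 of a whole number, so the nuclear values of Pcsk1n rest on few reads. Of its exon bases 6.16% are shared with another gene, as are 4.54% of those of Pcsk2, and none of the other 8 genes shares any.

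Cpe (ENSMUSG00000037852, chromosome 8, 64592542 to 64693054, minus strand) stood at 13.6 and 16.6 FPKM in nuclear RNA. Both cytoplasmic libraries were at 117 FPKM. The means were 15.1 ± 2.07 and 117 ± 0.0403 FPKM (SD, n = 2), a 7.73-fold difference. The log2 ratio was -2.88 (SE 0.25, limma adjusted p = 0.00157), and 4.42% of genes tested lay farther towards the cytoplasm, or 23.6% of those averaging 10 FPKM or more. With Scg2, Chgb and Scg3 it formed the 4 genes beyond a log2 ratio of -2.8.

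**Figure D2:**
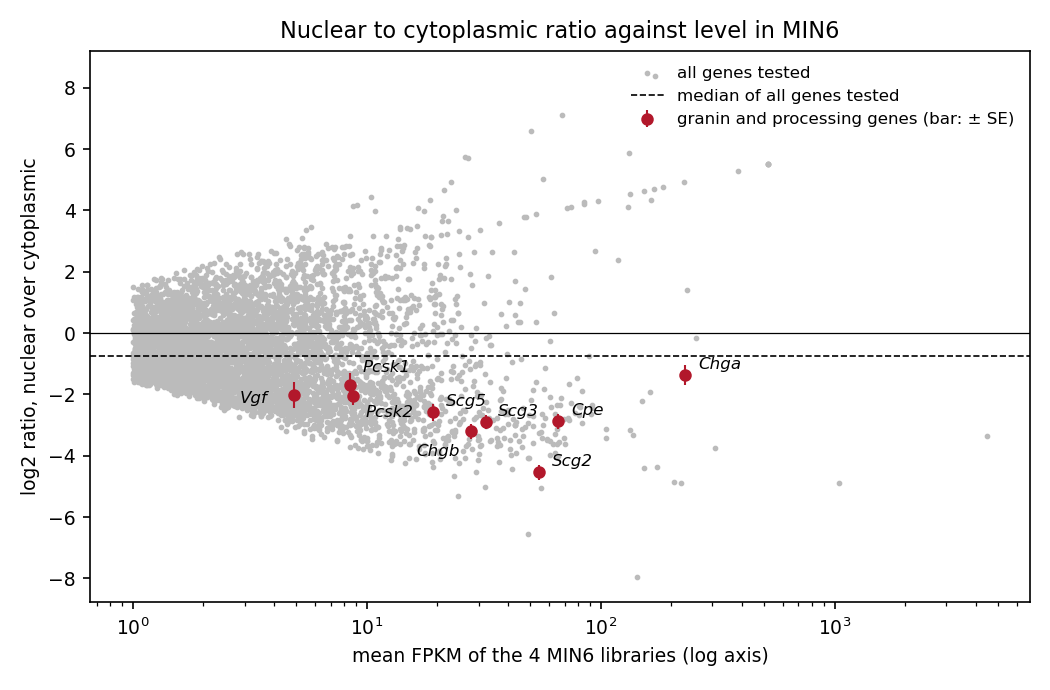
The log2 ratio of nuclear over cytoplasmic RNA in MIN6 against the mean FPKM of the 4 libraries (log axis), for the 6017 genes tested (grey) and the 9 granin and processing genes tested (red, bars ± SE of the fit). All red points lie below the dashed median of -0.76, and Chga at -1.38 lies nearest to it.

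The order of levels per length differed between the fractions. In nuclear RNA the order was Chga, Cpe, Scg3, Scg5, Chgb, Scg2, Pcsk1, Pcsk2, Vgf and Pcsk1n, and neighbours overlapped in 3 places: Scg5 with Chgb, Scg2 with Pcsk1, and Pcsk1 with Pcsk2. In cytoplasmic RNA Scg2 came after Chga and Cpe, ahead of Scg3, Chgb, Scg5, Pcsk2, Pcsk1, Vgf and Pcsk1n. There Scg3 overlapped with Chgb, Pcsk2 with Pcsk1, and Pcsk1 with Vgf. The 10 genes summed to 203 and 143 FPKM in nuclear RNA and to 732 and 733 FPKM in cytoplasmic RNA, which was 0.572% and 0.402% of all FPKM in the former and 1.21% and 1.16% in the latter. Chga made up 79.8% and 68.9% of that sum in nuclear RNA and 46.3% and 43.8% in cytoplasmic RNA. Scg2 made up 1.80% and 2.44% of the nuclear sums and 14.7% and 14.2% of the cytoplasmic ones.

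Ratios between genes inside a library do not depend on how libraries were scaled to each other. Chga over Scg2 was 44.3 and 28.3 in nuclear RNA and 3.15 and 3.09 in cytoplasmic RNA. Chga over Chgb was 37.2 and 20.1 against 7.24 and 5.80. Neither ratio overlapped between the fractions, and the surplus of Chga over these 2 granins was larger in both nuclear libraries. Chga and Scg2 had the log2 ratios at the 2 ends of the tested genes. Their pair therefore restates that difference, and every other pair likewise restates the difference between the log2 ratios of its 2 genes. No pair is a separate result. The pairs were a chosen set, and the share of other gene pairs without overlap was not computed. With 2 libraries in each group an exact permutation test of such a ratio cannot give a p below 0.333, and none is given.

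The processing enzymes behaved differently towards each other. Pcsk2 over Pcsk1 was 1.37 and 0.486 in nuclear and 1.60 and 0.777 in cytoplasmic RNA: it overlapped between the fractions, and in each fraction it was above 1 in replicate 1 and below 1 in replicate 2. Cpe over Pcsk2, at 4.08 and 7.54 against 7.23 and 8.88, and Scg3 over Cpe, at 0.501 and 0.416 against 0.471 and 0.513, overlapped as well. Scg5 over its client Pcsk2 was 1.78 and 1.71 in nuclear and 2.06 and 2.59 in cytoplasmic RNA, which did not overlap but lay close together. Cpe over Pcsk1 was 5.58 and 3.67 against 11.6 and 6.90, also without overlap.

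**Figure D3:**
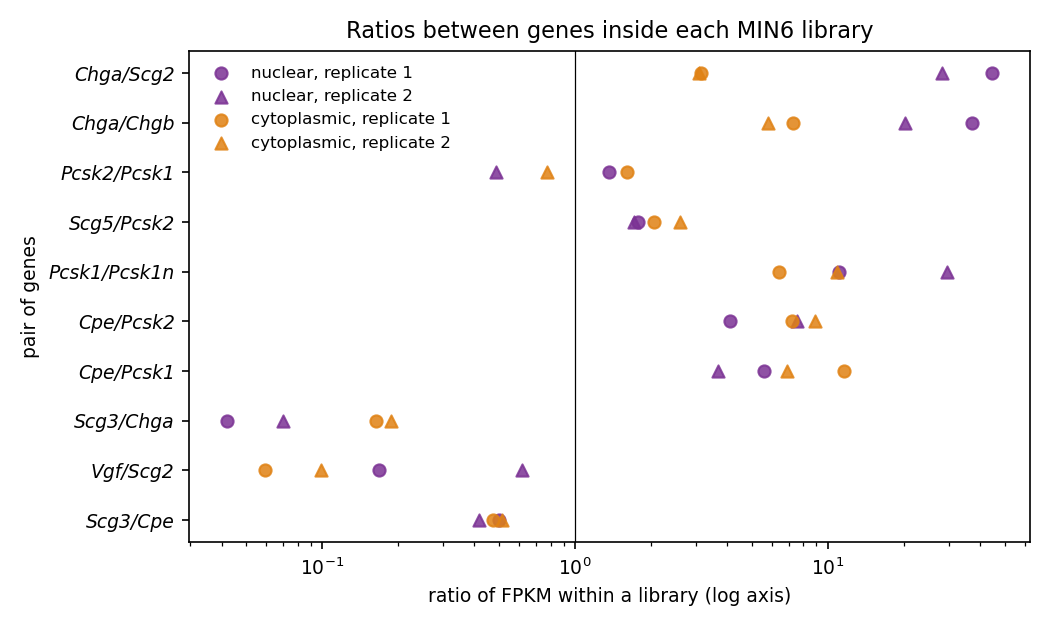
Ratio of the FPKM of 2 genes within each MIN6 library (log axis), 1 row per pair, with nuclear libraries in purple and cytoplasmic libraries in orange. Chga over Scg2 and Chga over Chgb are far apart between the fractions, whereas Scg3 over Cpe stays between 0.416 and 0.513 in all 4 libraries.

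Because the authors' scaling is unknown, the fit was repeated under 4 others. The 9 genes kept a negative ratio under each, but 2 calls ended under all 4: Chga and Pcsk1. For Chga the log2 ratio was -0.77 when libraries were centred on the median log2 value of the genes tested (limma adjusted p = 0.0612), and -0.58 when each was rescaled to the same sum (adjusted p = 0.291). It was -0.52 when the median FPKM was made equal (adjusted p = 0.149) and -0.68 on estimated reads (adjusted p = 0.0629). Pcsk1 stood at -1.09, -1.17, -0.95 and -1.08, with adjusted p of 0.0556, 0.108, 0.0961 and 0.0703 in the same order. Vgf lost its call under the equal sum alone, at -1.98 (limma adjusted p = 0.0666). Scg2 stayed between -3.78 and -4.08. Members called cytoplasmic were thus 7, 6, 7 and 7 of 9, against 29.2%, 29.5%, 32.2% and 35.1% of all genes tested, while nuclear calls over the table rose to 23.6%, 18.1%, 23.6% and 22.2%.

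**Figure D4:**
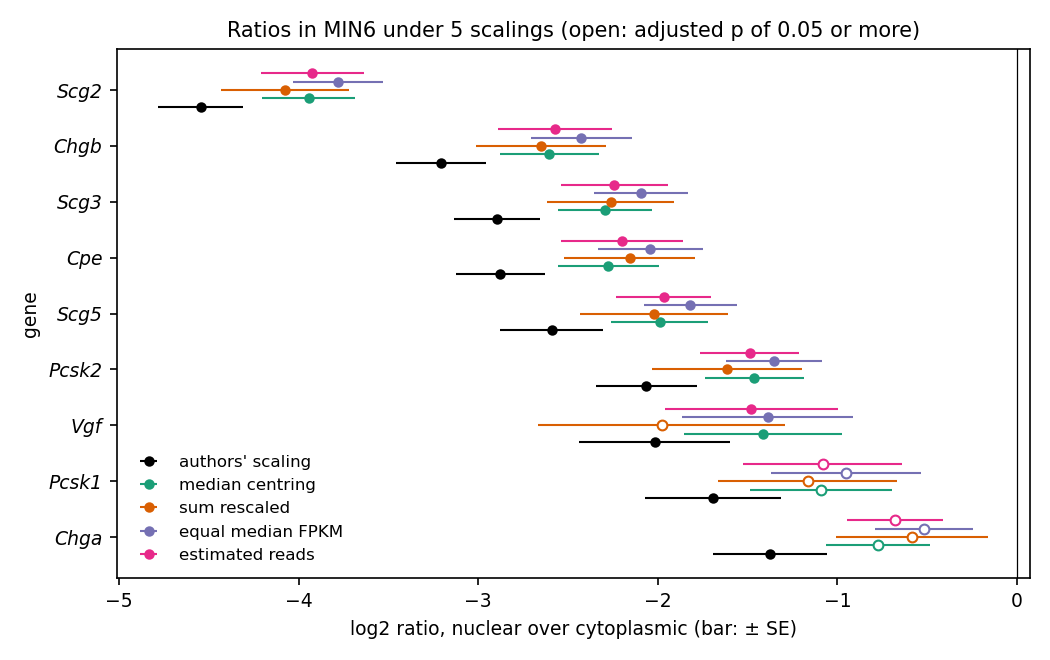
The log2 ratio of nuclear over cytoplasmic RNA of each of the 9 genes tested under the authors' scaling and 4 others, with bars of ± SE. Filled points passed an adjusted p of 0.05 and open points did not: all points lie below 0, and Chga and Pcsk1 are open under all 4 other scalings.

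Other genes of the peptide hormone pathway were taken from 4 lists, whose counts of calls all ended at 0 without MIN6 cytoplasmic replicate 2. Of 24 prohormone and propeptide genes 10 were tested, with a median log2 ratio of -3.39. All 10 were called higher in cytoplasmic RNA, against 46.1% of all genes tested and 468 of the 793 averaging 10 FPKM or more. Over the 4 other scalings 8 to 10 kept the call. They included the main substrates of the enzymes above: Ins2, one of the mouse insulin genes, stood at 835 and 763 FPKM in nuclear and at 8166 and 8162 FPKM in cytoplasmic RNA (log2 ratio -3.35, SE 0.24, limma adjusted p = 0.00144). Iapp, which encodes amylin, had a log2 ratio of -4.89, and the neuropeptide genes Npy and Cck had -4.84 and -4.36. Ins1, the other insulin gene, had a log2 ratio of -3.44 with a wide error (SE 0.86, limma adjusted p = 0.0196), at 21.8 and 3.71 FPKM against 186 and 66.1 FPKM. Its call ended with an equal sum (limma adjusted p = 0.0719), with no limit on low values (0.106), without nuclear replicate 2 (0.111) and without cytoplasmic replicate 1 (0.167) or 2 (0.0884), and leaving out 1 library moved its log2 ratio between -4.57 and -2.30.

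Of 18 genes for granule acidification, chiefly subunits of the proton-pumping vacuolar ATPase, 17 were tested. Of these 15 were called higher in cytoplasmic RNA, with 0 nuclear and a median of -2.21. Over all genes tested 46.1% were called cytoplasmic and 11.8% nuclear. Of the 793 averaging 10 FPKM or more, 468 were called cytoplasmic, with a median of -1.75. Under the other scalings 10 to 13 were called cytoplasmic and 0 nuclear. Atp6v0c, the main subunit of the membrane ring, had a log2 ratio of -3.50, Atp6v0e -3.24, the accessory subunit gene Atp6ap1 -2.81 and Atp6v0a1 -1.07. Atp6v0b, which had the highest mean of the list over the 4 libraries but stood under Atp6v0c in both cytoplasmic ones, did not pass, at 72.5 and 40.1 FPKM in nuclear and 62.9 and 68.0 FPKM in cytoplasmic RNA (limma adjusted p = 0.526).

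Of 20 granule biogenesis genes 18 were tested, of which 9 were called cytoplasmic, 2 nuclear and 7 not past the threshold, with a median of -0.87. These shares and the median are near those of all genes tested, 46.1% cytoplasmic, 11.8% nuclear and -0.76. Without cytoplasmic replicate 1 the counts were 5 and 0. The other scalings gave 5 to 7 cytoplasmic and 3 to 6 nuclear calls. Ptprn, which encodes the granule membrane protein IA-2, was called higher in nuclear RNA, at 88.3 and 52.5 FPKM against 22.9 and 26.7 FPKM (log2 ratio 1.43, SE 0.33, limma adjusted p = 0.0155). Its call ended without either cytoplasmic library (adjusted p = 0.123 and 0.102) and with no limit on low values (adjusted p = 0.0539). The other nuclear call was Pick1, a BAR domain protein of immature granules, at a log2 ratio of 1.83, a gene named here because it was 1 of these 2. Its call ended without nuclear replicate 1 (limma adjusted p = 0.0852), without either cytoplasmic library (0.0811 and 0.145), with no limit on low values (0.0763) and with all 8 libraries in 1 fit (0.138). Hid1 and Arfip2, which act at the trans-Golgi network, had log2 ratios of 0.35 and 0.06 that did not pass (limma adjusted p = 0.292 and 0.871). Sdf4, a calcium-binding Golgi protein gene, and Arl1, a Golgi GTPase gene, were called cytoplasmic at -2.02 and -3.41.

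Of 21 other processing enzymes 12 were tested, of which 5 were called cytoplasmic, 1 nuclear and 6 not past the threshold, with a median of -0.31. These shares too are near the 46.1% and 11.8% of all genes tested, and without cytoplasmic replicate 1 the counts were 3 and 0. The median turned positive under all 4 other scalings, between 0.23 and 0.39, with 4 cytoplasmic and 2 or 3 nuclear calls. Pam, which encodes the enzyme that amidates peptide ends after Cpe has acted, stood at 1.38 and 2.84 FPKM in nuclear and at 18.1 and 18.9 FPKM in cytoplasmic RNA (log2 ratio -2.69, SE 0.32, limma adjusted p = 0.00254). Of the other abundant genes of this list, Cpn1, Rnpep and Mbtps1 did not pass, with log2 ratios of -0.16, -0.26 and 0.38. Pcsk4, a convertase gene of germ cells and the 1 nuclear call, stood at 6.38 and 1.71 FPKM in nuclear and at 0.231 and 0 FPKM in cytoplasmic RNA, and was named after its values were seen. Its call ended without either cytoplasmic library (limma adjusted p = 0.124 and 0.163), with a pseudocount of 5, with no limit on low values and with all 8 libraries in 1 fit.

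**Figure D5:**
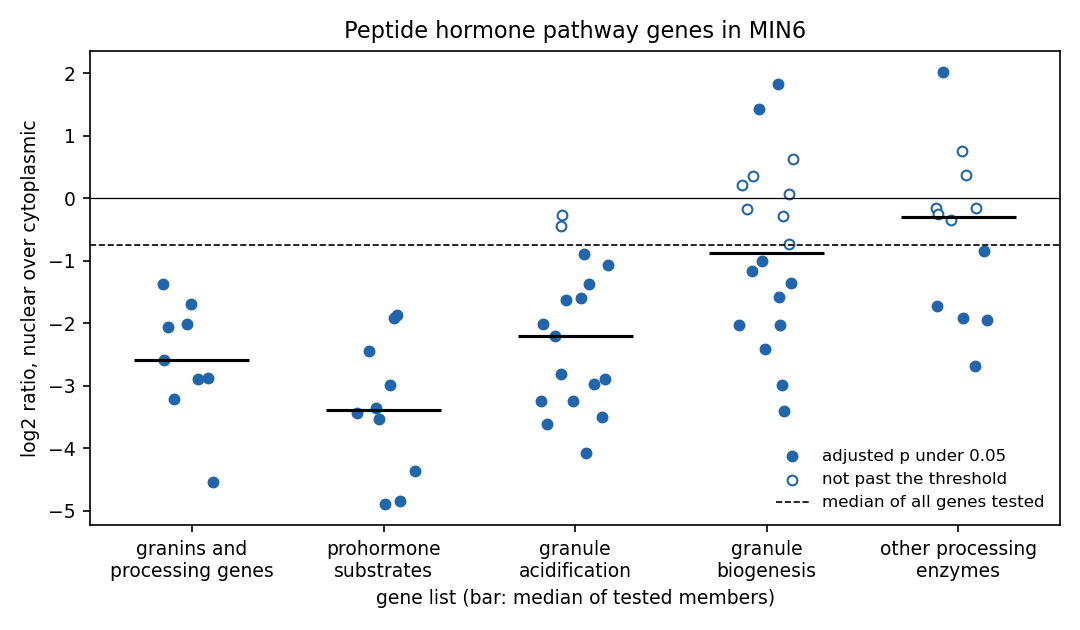
The log2 ratio of nuclear over cytoplasmic RNA in MIN6 for tested genes of the 10 granin and processing genes and of 4 other lists of the peptide hormone pathway, with a bar at the median of each list and a dashed line at the median of all genes tested, -0.76. Filled points passed an adjusted p of 0.05. The medians run from -3.39 for prohormone substrates to -0.31 for other processing enzymes, the latter positive under the other scalings.

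In liver all 10 genes were listed at 0 in all 4 libraries, so no nuclear to cytoplasmic ratio exists for them there and no difference of that ratio between MIN6 and liver could be tested. Of the 6017 genes tested in MIN6, 329 were listed at 0 in all liver libraries, as were 62 of the 793 averaging 10 FPKM or more. A listed 0 was read against the FPKM that 3 reads would give, which covers counting error only. That floor ran from 0.116 to 0.649 FPKM over these genes in liver nuclear libraries and from 1.06 to 6.06 FPKM in liver cytoplasmic libraries. For 9 of the 10 genes the lower MIN6 value exceeded the higher liver floor in the nuclear and in the cytoplasmic fraction. Pcsk1n was the exception in both: its MIN6 values of 1.57 and 1.56 FPKM were under the liver cytoplasmic floor of up to 3.34 FPKM. That floor follows the scale of the libraries more than their depth. Relative to MIN6 nuclear replicate 1, the value of 1 read was 2.25 and 2.35 in MIN6 cytoplasmic and 46.4 and 33.9 in liver cytoplasmic libraries. Estimated depths were 1068510 and 1060010 against 966334 and 929036 reads. By steps, Pcsk1n had 19 and 18 reads in MIN6 cytoplasmic libraries and was listed at 0 in liver. A comparison of FPKM with the floor therefore cannot decide for Pcsk1n.

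In the fit of the 4 cytoplasmic libraries 3.9% of 10272 genes were called higher in MIN6, and 9 of these genes were tested. In the fit of the 4 nuclear libraries 4.91% of 7460 genes were called higher in MIN6, and 8 of these genes were tested. These genes passed the limit on low values through MIN6 alone, and their liver values were all 0. The outcome of the test was thus largely set in advance. Their p-values and number called are no support of their own and are not given. In each fit every call, of these genes as of all others in the table, needed both MIN6 libraries. No fold is given against values listed at 0, and in bulk RNA fewer cells of a type and less RNA per cell cannot be told apart.

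Markers followed the labelled sources. Liver libraries had all 8 hepatocyte markers above 0, and 4 of the 8, Alb among them, were listed at 0 in all MIN6 libraries. Of the other 4, Ttr, which encodes transthyretin and is also made in islets, stood at 4.30 and 2.24 FPKM in nuclear and at 27.4 and 23.9 FPKM in cytoplasmic MIN6 RNA, and Apoa1, Serpina1a and Apob were at most 0.339 FPKM. Of 9 beta cell markers 8 were listed at 0 in all liver libraries, and the exception was the glucose transporter gene Slc2a2, at 2.98 to 53.1 FPKM in liver, a gene that hepatocytes also use. In MIN6 Slc2a2 was listed at 0 in 3 libraries and at 0.0545 FPKM in the other. Of 8 nerve and chromaffin markers, cell types that also make granins, 7 were listed at 0 in all liver libraries. Their sum in MIN6 was 115 and 73.5 FPKM in nuclear and 82.3 and 89.4 FPKM in cytoplasmic RNA. Th, the gene of tyrosine hydroxylase, was the highest at 39.9 to 99.7 FPKM, with Snap25 and Uchl1 next in cytoplasmic RNA. The rest of the list was low: Stmn2 was listed at 0 in all MIN6 libraries and Tubb3 was at most 3.39 FPKM. Dbh, Syt1 and Prph were at most 0.341 FPKM in MIN6. The part of such cells in the granin levels was not tested. Of 6 markers of other islet cells, the glucagon gene Gcg reached 23.1 and 27.3 FPKM and the somatostatin gene Sst 7.63 and 20.5 FPKM in MIN6 cytoplasmic RNA, and the part of such cells in the levels was not tested either. The sum of the non-parenchymal liver markers was 0.504 to 1.08 FPKM in MIN6 and 124 to 315 FPKM in liver, and that of duct and exocrine markers 0.645 to 3.63 and 2.51 to 46.6 FPKM.

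RNA of other processing enzymes was present in liver. None of the 21 other processing enzymes was listed at 0 in all liver libraries, and 16 were above 0 in all 4. Of the 6017 genes tested in MIN6, 329 were listed at 0 in all liver libraries and 4654 were above 0 in all 4. Presence in liver was thus common over the table. Furin, a convertase of the constitutive secretory route, stood at 11.4 and 9.26 FPKM in liver nuclear and at 80.6 and 63.1 FPKM in liver cytoplasmic RNA, and Pcsk6 at 5.04 and 2.61 against 77.5 and 68.8 FPKM. In MIN6 Furin stood at 0.855 and 0.968 FPKM in nuclear and at 3.05 and 1.89 FPKM in cytoplasmic RNA. Pcsk6 was at most 0.0875 FPKM there. Furin and Pcsk6 were named after their values were seen, and MIN6 and liver values are on different scales.

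The genes whose pattern over the 8 libraries was most like the mean of the 10 genes, among 787 others averaging 10 FPKM or more in MIN6, were Pdyn, Iapp, Bex2, Cck and Hepacam2, with Pearson r of 0.99986, 0.99944, 0.99891, 0.998 and 0.9972. The points of this measure share the split between MIN6 and liver, which sets most of r. Pdyn, the prodynorphin gene, stood at 4.89 and 5.05 FPKM in nuclear and at 31.4 and 31.6 FPKM in cytoplasmic MIN6 RNA. Of the 5, all but Hepacam2 were listed at 0 in all liver libraries.

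The genes differ widely in structure. Transcript length ran from 1208 bases in Scg5 to 5040 in Pcsk1, exon number from 2 in Scg2 to 14 in Pcsk1, and genomic span from 4.59 kb in Pcsk1n to 270 kb in Pcsk2. Spearman's rho with the log2 ratio in MIN6, over 9 genes and given as a description only, was 0.13 for length, 0.45 for exon number, 0.23 for GC content, 0.15 for genomic span and -0.05 for coding length. Scg2, the gene with the fewest exons, was also the one with the ratio farthest towards the cytoplasm.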

How the data were processed

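PolyA RNA of nuclear and cytoplasmic fractions of mouse liver and MIN6 cells was sequenced in 8 libraries, 2 per group, grouped here by sample title. The deposited table holds 1 FPKM value per gene and library. Per the submitters' processing notes, the authors used TopHat and Cuffdiff on build mm10; tool versions, gene models and how libraries were scaled to each other are not given in the labels used here. The unit was taken from the tools and the values, since the table's header names none, and the sums of FPKM show that libraries are not scaled to their mapped fragments. Depth was therefore estimated, from the steps of low values between libraries (ratios within 0.004 on the log2 scale) and from genes with 1 transcript longer than 1500 bases, as reads per library; 3 reads were the floor. For Pcsk1n the estimate from length gave 9 reads where the steps gave 6. This estimate and the fit were tested on simulated data.

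Fits used limma 3.58.1 under R 4.3.3 on log2(FPKM + 1), over genes averaging 1 FPKM or more across the 4 libraries of a fit, with Benjamini-Hochberg adjustment over all genes tested and a threshold of 0.05. Ratios are nuclear over cytoplasmic, and fold changes of low genes are understated on this scale. Positions, exons and lengths are from GENCODE M21, which matched 25522 of 26520 genes; 10324 were at 0 throughout, and 147 of 150 genes on the lists were matched.

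The 10 genes and the lists were chosen with earlier results of these data known. Named were all 10 genes, the 5 most abundant tested genes of each pathway list whatever their ratio (1 gene so chosen is not reported here), the markers, and the 5 genes with the highest Pearson correlation with the mean of the 10; others are said to be chosen after their values were seen. Alternatives were pseudocounts of 0.1 and 5, no limit on low values and a mean of at least 5, median centring, an equal sum, an intensity trend, all libraries in 1 fit, the replicate number as a block and each library left out. Equal median FPKM and estimated reads were added after seeing the data.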

Additional observations from a re-analysis of the deposited data

How the results depend on the processing

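All 9 tested genes kept a negative nuclear over cytoplasmic ratio under each alternative run, from -4.85 to -3.69 for Scg2 and from -1.73 to -0.52 for Chga, left-out libraries included. Leaving out single MIN6 libraries gave 0 to 9 of these genes called cytoplasmic: 7 without nuclear replicate 1 (Vgf and Pcsk1 lost), 9 without nuclear replicate 2, 5 without cytoplasmic replicate 1 (Chga, Vgf, Pcsk1 and Pcsk2 lost) and 0 without cytoplasmic replicate 2, where limma called 0 of 6017 genes while 2769 genes and 6 of the 9 had an unadjusted p under 0.05. Such a fit has 1 residual degree of freedom and assumes that the lone library varies like the other fraction. Over all genes these fits gave 0 to 814 nuclear and 0 to 2294 cytoplasmic calls. Against 712 nuclear and 2775 cytoplasmic calls as reported, nuclear calls were 469 with a pseudocount of 5, 239 with a mean of at least 5 FPKM (cytoplasmic 924, fewer genes being tested) and 413 with all 8 libraries in 1 fit. Nuclear and cytoplasmic calls were 1423 and 1754 after median centring and 1088 and 1773 with an equal sum. Nuclear calls were 1419 with an equal median FPKM and 1334 on estimated reads. The cause of these moves was not tested. With no limit on low values Vgf and Pcsk1 lost their calls (adjusted p 0.0580 and 0.0597). The replicate number as a block gave 9 cytoplasmic calls among the 9 genes and 700 nuclear and 2681 cytoplasmic calls in all; the deviations of same-numbered MIN6 libraries correlated at 0.0452 over 6017 genes, too low to treat the numbers as pairs, although in 9 of the 10 genes the replicates differed in the same direction in both fractions. In the fits of MIN6 against liver these genes passed the limit on low values through MIN6 alone. Counts of their calls are therefore no support of their own and are not given by setting. A mean of at least 5 FPKM left 2 of these genes in the nuclear fit. Pcsk1n rested on the fewest reads of these genes in MIN6, and in liver nothing under the floors could be seen.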
